A study of Mus musculus with 6 samples.

Results

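The cell cycle genes Ccne2, Skp2, Smc2, Melk, Orc3, Esco1 and Ccny and the p53 target genes Trp53inp1 and Rrm2b were examined in D2.OR cells with a hairpin against SLX4IP. These 9 genes were given by name and were found by their Ensembl identifiers, without version, among the 53647 features of the deposited table. D2.OR is a mouse mammary carcinoma line. The shSLX4IP cells carried a lentiviral short hairpin RNA against SLX4IP, and the Scram cells carried a scrambled, non-targeting hairpin. Cells of both groups were selected with puromycin and kept for 7 days in 3D culture, on and in the basement membrane extract Cultrex, before total RNA was taken. Each group has 3 libraries, called biological replicates in the labels. Separate cultures are not stated, so p-values measure only the spread between libraries, which may be technical. The protocol describes 1 hairpin against SLX4IP.

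Cells enter S phase when cyclin E binds and activates its kinase, after E2F factors have been released from the retinoblastoma protein and SCF ubiquitin ligases have removed inhibitors of the kinase. Origins of replication are marked by the origin recognition complex, sister chromatids are held by cohesin and compacted by condensin, and mitosis follows. The transcription factor p53 opposes this programme after DNA damage or other stress. It induces inhibitors of the cycle and genes of repair and metabolism, among them Trp53inp1 and Rrm2b. SLX4IP binds the nuclease scaffold SLX4 and takes part in telomere maintenance.

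Every value is a gene's read count over the size factor of its library and is called a normalised count here. They corresponded to between 5433573 and 6693111 reads in a library. Identifiers and values were taken to agree in only 4 chromosome segments, where genes with high values cluster, and in the mitochondrial genes. Agreement was not checked for each gene. Actb and Eef1a1, which every cell uses, lie outside the segments and were listed at 0 in all 6 libraries. All 9 genes lie inside the segments on chromosomes 4, 15 and 18, and genes inside the segments, like the mitochondrial genes, are called readable. The targeted gene Slx4ip lies outside and was listed at 0 in each shSLX4IP and each Scram library, so its depletion was not checked here. Of 9 epithelial and mammary markers 3 were readable (Esrp1, Grhl2 and Prlr), with summed normalised counts of 2.93 to 32.6 in shSLX4IP and 26.2 to 82.0 in Scram, so the markers that could be read were low in both groups. Epcam, Cdh1 and the keratin genes were not among the readable ones. The 1 readable fibroblast marker of 5, Col1a2, was at 239 to 302 in shSLX4IP and at 20226 to 25022 in Scram, and its part in the results below was not tested. The readable B cell markers (2 of 4) summed to 13.7 to 29.5 in shSLX4IP and 52.7 to 93.4 in Scram, and the readable T cell marker (1 of 3), Il7r, was listed at 0 in every library. None of the 3 macrophage or 3 endothelial markers was readable.

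The shSLX4IP cells had less message than Scram cells for 4 of the 7 cell cycle genes and more for 1, and more for both p53 targets. Ccne2, Skp2, Melk and Ccny fell, Orc3 rose, and Trp53inp1 and Rrm2b rose. Smc2 and Esco1 did not pass the test. The test was limma on log2(normalised count + 1), adjusted by the Benjamini-Hochberg method over all 8127 features with a mean of at least 10, with a threshold of 0.05. All 9 genes passed the filter on the mean, with at least 115 recovered reads in each library. Of the 431 readable nuclear genes tested, 41.1% were called, with 18.3% higher and 22.7% lower in shSLX4IP. With mitochondrial genes the readable features numbered 462, of which 40.3% were called (17.3% higher, 22.9% lower). Over all features tested 23.0% were called (11.7% higher, 11.3% lower). The groups did not overlap in 7 of the 9 genes, against 67.5% of the readable nuclear genes, 67.1% of all readable features and 53.5% of all features tested. The 9 genes were chosen with results of these data known, and these shares are background for reading single genes, not a test of the set. In bulk RNA, fewer cells of a type and less RNA per cell cannot be told apart.

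**Figure D1:**
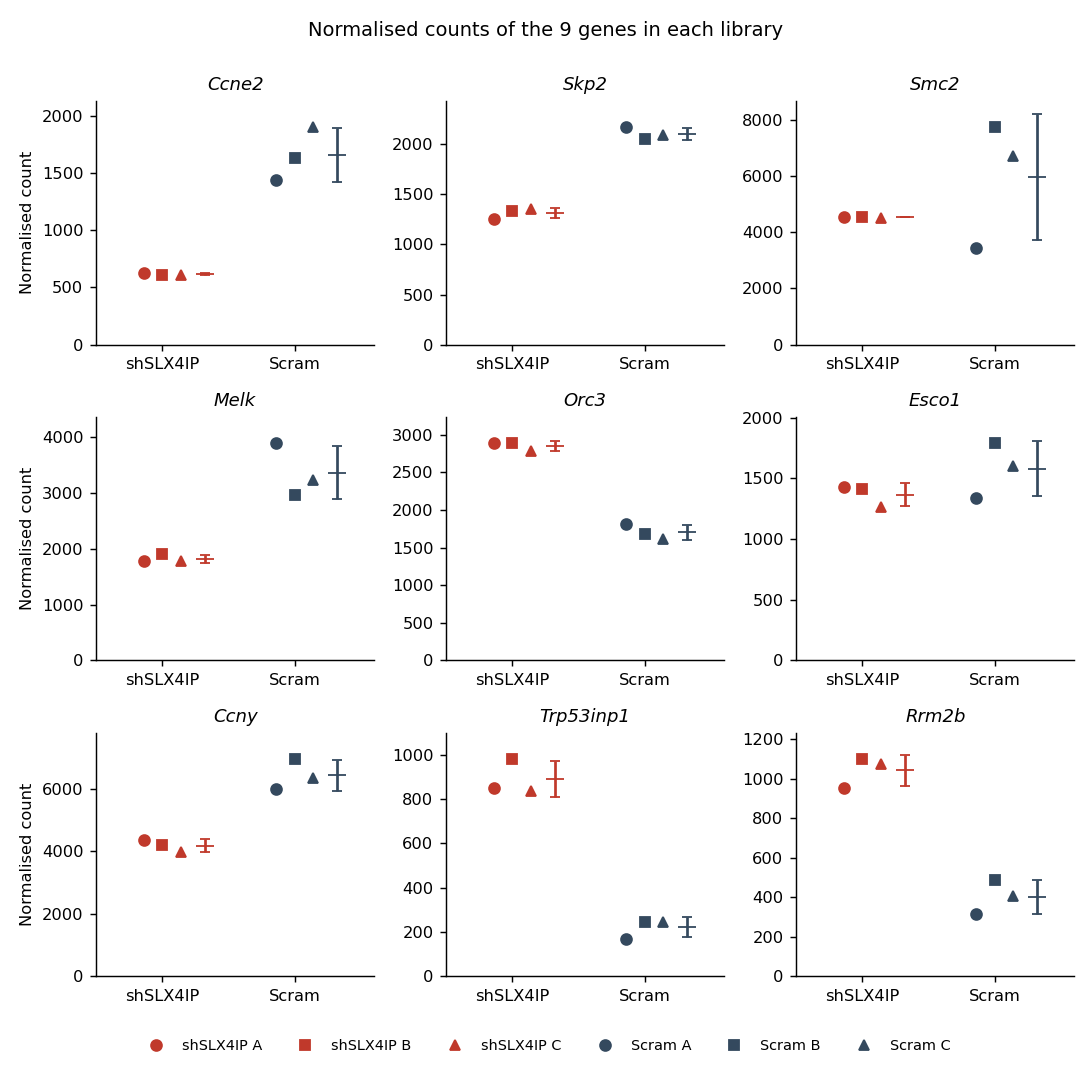
Normalised counts (y axis, from 0) of the 9 genes in the 3 shSLX4IP and the 3 Scram libraries. Symbols are libraries, and the bar beside them is the mean ± SD (n = 3). The groups are apart in all panels but those of Smc2 and Esco1, where Scram A lies among or below the shSLX4IP libraries.

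Ccne2 (ENSMUSG00000028212.17, chromosome 4, 11191351 to 11204779, plus strand) encodes cyclin E2, which drives entry into S phase with its kinase CDK2. Its normalised counts, here and below in the order of libraries A, B and C, were 626, 609 and 612 in shSLX4IP libraries, against 1435, 1633 and 1901 in Scram libraries. Every shSLX4IP library was below every Scram library, and the shSLX4IP libraries lay close together. The mean was 616 ± 8.96 in shSLX4IP and 1656 ± 234 in Scram (SD, n = 3 each). That is a log2 fold change of -1.42 (shSLX4IP over Scram, SE 0.16, 95% confidence interval -1.81 to -1.02, limma adjusted p = 0.00329). Exons of Ccne2 overlap those of Ints8, a subunit of the Integrator complex on the other strand, over 609 bases or 17.4% of the exonic length of Ccne2. If the counting did not use strand, reads there cannot be told apart. Ints8 itself was at 2721, 2830 and 2332 in shSLX4IP and at 2560, 2918 and 3035 in Scram, and did not pass (log2 fold change -0.11, limma adjusted p = 0.573).

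Skp2 (ENSMUSG00000054115.13, chromosome 15, 9111985 to 9155425, minus strand) encodes the F-box protein that brings the inhibitor p27 to an SCF ubiquitin ligase for destruction. It was at 1257, 1335 and 1350 in shSLX4IP libraries, against 2169, 2052 and 2086 in Scram libraries. The groups did not overlap, and the spread within each was small beside the distance between them. Its log2 fold change was -0.68 (SE 0.12, 95% confidence interval -0.98 to -0.38, limma adjusted p = 0.0146). The call was lost without Scram C or any 1 shSLX4IP library (adjusted p 0.0543 to 0.0663), with no change of direction, and with quantile normalization, at -0.33 (adjusted p = 0.195). Over the 17 other settings its adjusted p ranged between 2.51e-15 and 0.195.

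Melk (ENSMUSG00000035683.14, chromosome 4, 44300876 to 44364675, plus strand) encodes the maternal embryonic leucine zipper kinase, which is abundant in dividing cells. It was at 1776, 1900 and 1783 in shSLX4IP libraries, against 3898, 2960 and 3243 in Scram libraries. The lowest Scram library was above the highest shSLX4IP library. The log2 fold change was -0.88 (SE 0.15, 95% confidence interval -1.25 to -0.51, limma adjusted p = 0.0122). The call was lost without any 1 shSLX4IP library (adjusted p 0.0534 to 0.0608). With quantile normalization the log2 fold change was -0.46. In all 17 other settings the adjusted p ranged between 4.00e-08 and 0.0608.

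Ccny (ENSMUSG00000024286.9, chromosome 18, 9312304 to 9450154, minus strand) encodes cyclin Y, a membrane-bound cyclin that partners CDK14 and CDK16 and acts in Wnt signalling at mitosis. It was at 4382, 4209 and 3979 in shSLX4IP libraries, against 5994, 6969 and 6366 in Scram libraries. All shSLX4IP libraries were lower than all Scram libraries. The log2 fold change was -0.62 (SE 0.12, 95% confidence interval -0.91 to -0.32, limma adjusted p = 0.0184). This was the smallest change among the 7 genes called. The call was lost without Scram C or any 1 shSLX4IP library (adjusted p 0.0672 to 0.0896), and after quantile normalization the log2 fold change was -0.11 (adjusted p = 0.747). The lowest and highest adjusted p of the 17 other settings were 3.91e-09 and 0.747.

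Orc3 (ENSMUSG00000040044.12, chromosome 4, 34570796 to 34614944, minus strand), a subunit of the origin recognition complex, went the other way from the other cell cycle genes called. It was at 2891, 2887 and 2778 in shSLX4IP libraries, against 1811, 1681 and 1617 in Scram libraries, with no overlap. The log2 fold change was 0.74 (SE 0.12, 95% confidence interval 0.45 to 1.04, limma adjusted p = 0.0103). The call was lost without shSLX4IP A or B (adjusted p 0.0545 and 0.0539), and over the 17 other settings the adjusted p ran from 4.89e-15 to 0.0545. With quantile normalization the log2 fold change was 1.17. The gene Rars2, a mitochondrial arginyl-tRNA synthetase read in the opposite direction, starts beyond a gap of 12 bases. It was at 1455, 1238 and 1319 in shSLX4IP and 1757, 1182 and 1190 in Scram, and its log2 fold change of -0.02 (SE 0.21) was not called (limma adjusted p = 0.951). Rars2 was chosen for its place after its values were seen.

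Smc2 (ENSMUSG00000028312.20, chromosome 4, 52439243 to 52488260, plus strand) encodes an ATPase subunit shared by both condensin complexes. It was at 4541, 4541 and 4517 in shSLX4IP libraries, against 3444, 7728 and 6716 in Scram libraries. The shSLX4IP libraries were nearly equal and lay above Scram A and below Scram B and C. The log2 fold change of -0.31 did not pass (SE 0.32, 95% confidence interval -1.10 to 0.47, limma adjusted p = 0.479). Without Scram A it was -0.67 (SE 0.08, adjusted p = 0.00292), so whether Smc2 passes depends on that library. Across the 17 other settings the adjusted p ranged between 0.00292 and 0.842. Scram A also stood apart as a library. It had 8464 features above 0, against 10548 to 11611 in the other 5 libraries. Its 100 highest features held 44.1% of its values, against 35.6% to 37.0%. Each of its reads stood for 1.46 in normalised counts, against 0.80 to 0.98. Its values summed to 8948118, against 5276405 to 5974334. The part of these differences in the value of Smc2 was not tested. Scram A differed in its trend with exonic length too. Relative to the mean of all libraries, log2 values in Scram A changed by -0.29 for each doubling of exonic length over the readable nuclear genes, against -0.04 to 0.13 in the other 5 libraries. With each library's length trend removed, Smc2 was at -0.44 and still did not pass (limma adjusted p = 0.165, over readable nuclear genes), and with quantile normalization it was at 0.14.

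Esco1 (ENSMUSG00000024293.17, chromosome 18, 10566507 to 10610352, minus strand) encodes an acetyltransferase that acts on the cohesin subunit SMC3. It was at 1426, 1412 and 1259 in shSLX4IP libraries, against 1340, 1791 and 1600 in Scram libraries. Scram A lay among the shSLX4IP libraries, so the groups overlapped. The log2 fold change was -0.20 (SE 0.16, limma adjusted p = 0.396). Its 95% confidence interval of -0.61 to 0.21 leaves room for a fall about as large as that of Ccny. With the length trend of each library removed it was -0.31 and passed (limma adjusted p = 0.0477, over readable nuclear genes). The 17 other settings gave an adjusted p between 0.0477 and 0.772.

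Trp53inp1 (ENSMUSG00000028211.12, chromosome 4, 11156431 to 11174379, plus strand) encodes a stress-induced nuclear protein that enhances p53 activity and takes part in autophagy. It was at 851, 981 and 838 in shSLX4IP libraries, against 168, 247 and 246 in Scram libraries. The lowest shSLX4IP library was well above the highest Scram library. The mean was 889.8 ± 79.4 in shSLX4IP and 220.4 ± 45.0 in Scram (SD, n = 3 each), which is 4.04-fold. The log2 fold change was 2.03 (SE 0.22, 95% confidence interval 1.48 to 2.58, limma adjusted p = 0.00291), the largest of the 9 genes. It stood at the 89.6th percentile of log2 fold changes over readable nuclear genes.

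Rrm2b (ENSMUSG00000022292.17, chromosome 15, 37923952 to 37961318, minus strand) encodes the p53-inducible small subunit of ribonucleotide reductase, which supplies deoxynucleotides for repair and for mitochondrial DNA outside S phase. It was at 953, 1102 and 1076 in shSLX4IP libraries, against 313, 487 and 406 in Scram libraries. There was no overlap between the groups. The log2 fold change was 1.39 (SE 0.21, 95% confidence interval 0.87 to 1.92, limma adjusted p = 0.00843). Its exons overlap the antisense gene Gm49085 over 734 bases, 8.04% of its exonic length. Gm49085 was at 47.1, 7.81 and 62.9 in shSLX4IP and 33.7, 3.74 and 9.11 in Scram, far below Rrm2b in each library.

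**Figure D2:**
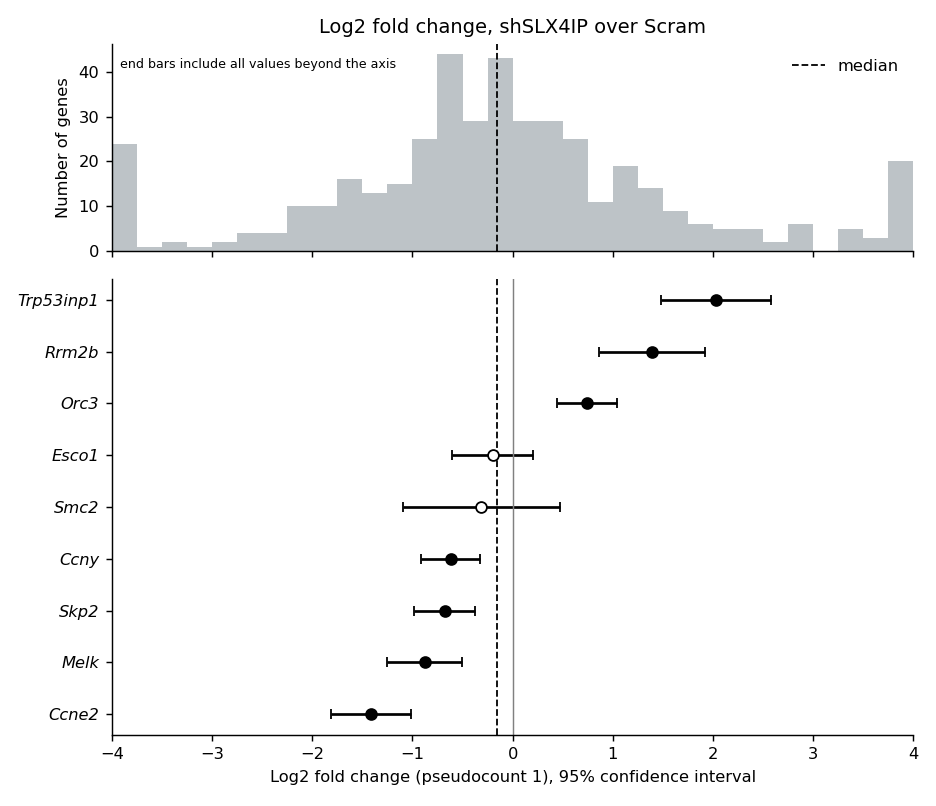
Log2 fold changes (x axis, shSLX4IP over Scram, pseudocount of 1). Upper panel, number of readable nuclear genes per bin (end bars hold all values beyond the axis), with their median of -0.15 as a dashed line. Lower panel, the 9 genes with 95% confidence intervals, filled where the limma adjusted p was below 0.05. Trp53inp1, Rrm2b and Orc3 lie to the right, and Ccne2 lies farthest to the left.

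Changes were also read against the middle of the distribution of all changes. Over all features tested the median of log2 fold changes stood at 0.25, and over readable nuclear genes the median was -0.15. Relative to the readable nuclear median, the log2 fold change was 2.18 for Trp53inp1, 1.55 for Rrm2b, 0.90 for Orc3, -0.47 for Ccny, -0.53 for Skp2, -0.73 for Melk and -1.26 for Ccne2. Those of Smc2 and Esco1 were then -0.16 and -0.05. As percentiles of log2 fold changes over readable nuclear genes, Ccne2 stood at 18.1, Melk at 26.2, Skp2 at 32.3 and Ccny at 34.3. Smc2 stood at 43.9, Esco1 at 48.5, Orc3 at 75.2, Rrm2b at 84.5 and Trp53inp1 at 89.6.

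Setting a cell cycle gene against a p53 target inside the same library removes the size factor of that library. The log2 ratio of Ccne2 to its neighbour Trp53inp1 was -0.44, -0.69 and -0.45 in shSLX4IP libraries, against 3.08, 2.72 and 2.94 in Scram libraries. Ccne2 was below Trp53inp1 in every shSLX4IP library and above it in every Scram library. The ratio was 10.9-fold lower in shSLX4IP (difference of mean log2 ratios -3.44, exact 2-sided permutation p = 0.1, the smallest that 3 against 3 libraries allow). The log2 ratio of Skp2 to Rrm2b, both on chromosome 15, was 0.40, 0.28 and 0.33 in shSLX4IP libraries, against 2.79, 2.07 and 2.36 in Scram libraries. It was 4.21-fold lower in shSLX4IP (difference -2.07, exact 2-sided permutation p = 0.1, again the smallest possible). These ratios compare normalised counts, not counts per length, so a ratio above or below 1 does not order the levels of the messages. Both ratios combine genes already described as changed in opposite directions and add no independent evidence of either change.

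**Figure D3:**
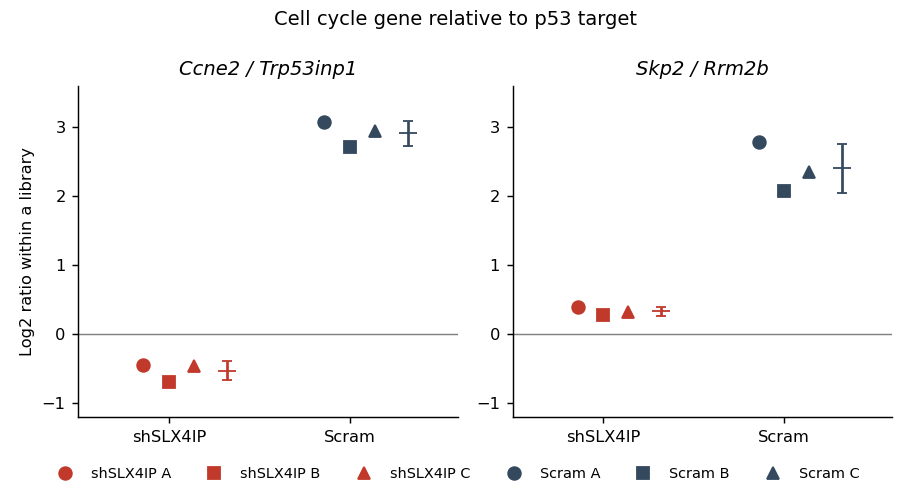
Log2 ratio of normalised counts within a library (y axis) for Ccne2 over Trp53inp1 and Skp2 over Rrm2b, in shSLX4IP and Scram. Symbols are libraries, and the bar beside them is the mean ± SD (n = 3). The ratio of Ccne2 to Trp53inp1 is below 0 in the 3 shSLX4IP libraries and above 2.7 in the 3 Scram libraries.

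Trp53inp1 and Ccne2 are read in the same direction on chromosome 4, with 16971 bases between them, and moved in opposite directions. Ints8, which follows Ccne2, did not pass. Of the 8 protein-coding genes plotted around the pair 3 were called, a share near the 41.1% of readable nuclear genes. Trp53inp1 rose, and Ccne2 and Plekhf2 fell. Dpy19l4, on the far side of Ints8, was at 2888, 2974 and 2713 in shSLX4IP libraries, against 740, 1749 and 1426 in Scram libraries. Its groups did not overlap, and its log2 fold change of 1.219 (SE 0.33) just missed the threshold (limma adjusted p = 0.05002). Plekhf2 and Dpy19l4 were chosen for their place after their values were seen.

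**Figure D4:**
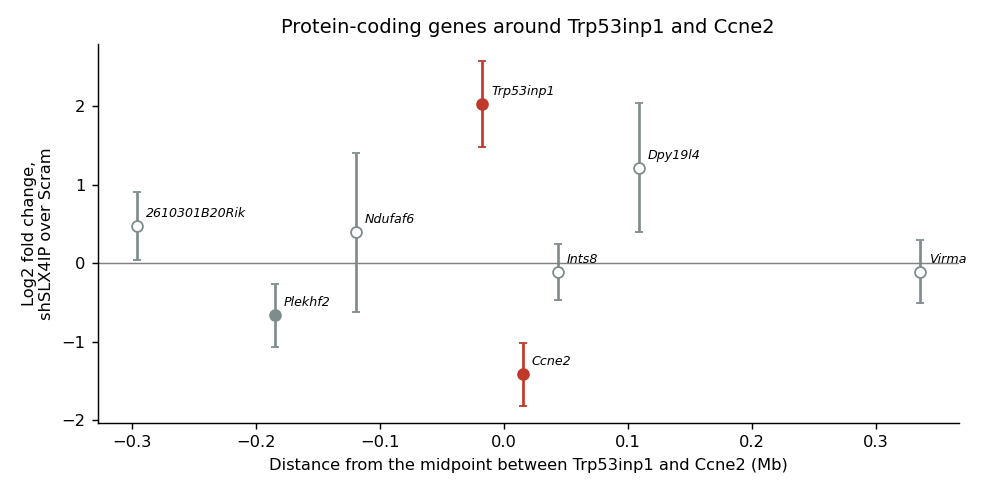
Log2 fold change (y axis, shSLX4IP over Scram, with 95% confidence intervals) of the 8 tested protein-coding genes around Trp53inp1 and Ccne2, by distance in Mb from the midpoint between the pair (x axis). Filled points have a limma adjusted p below 0.05. Trp53inp1 is at 2.03 and Ccne2 at -1.42, and Ints8 next to Ccne2 is at -0.11. Red marks the pair.

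Levels were also compared between the genes, as normalised counts per kb of exonic length. This length covers all annotated exons of a gene together, and which transcripts the cells used was not tested. In shSLX4IP the order from high to low was Smc2 (827.5 per kb), Ccny (687), Melk (612), Orc3 (468), Esco1 (268), Ccne2 (176), Skp2 (167), Trp53inp1 (137) and Rrm2b (114). The ranges of neighbours in this order did not overlap across the 3 shSLX4IP libraries. In Scram it was Melk (1133 per kb), Smc2 (1088), Ccny (1057), Ccne2 (474), Esco1 (309), Orc3 (279.8), Skp2 (267), Rrm2b (44.0) and Trp53inp1 (34.0). There the ranges of Melk, Smc2 and Ccny overlapped from neighbour to neighbour, as did those of Esco1, Orc3 and Skp2, and those of Rrm2b and Trp53inp1. Both p53 targets were thus the lowest of the 9 per kb in each group. Ccne2 was above Orc3 per kb in Scram and below it in shSLX4IP.

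Upstream sequence is shown for 3 cell cycle genes on chromosomes 4 and 15 with usable bases before their start. Of these, Skp2 and Melk fell and Smc2 did not pass. Of the 9 genes, 4 had an entry on chromosome 4 or 15 in the RefSeq promoter table (GRCm38.p6) close to their annotated start. Entries farther from that start were not kept. That of Orc3 lies largely in exons of Rars2 and is not printed, and no entry was used for Ccne2, Trp53inp1, Rrm2b, Esco1 or Ccny. Bases in annotated exons were left out. Capitals mark the CHR element (TTTGAA) and the CCAAT box (CCAAT), which occur in promoters of many genes of late cell cycle phases, and the GC box (GGGCGG), each searched on both strands. No marked motif overlaps another.
Skp2, chr15:9155426-9155532, minus strand: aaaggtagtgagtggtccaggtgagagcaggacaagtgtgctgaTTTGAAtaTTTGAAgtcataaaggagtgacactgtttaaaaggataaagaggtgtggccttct
Melk, chr4:44300667-44300875, plus strand: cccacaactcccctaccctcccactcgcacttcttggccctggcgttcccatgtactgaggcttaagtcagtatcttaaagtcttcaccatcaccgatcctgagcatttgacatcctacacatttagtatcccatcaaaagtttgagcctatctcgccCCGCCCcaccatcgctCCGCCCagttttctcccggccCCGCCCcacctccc
Smc2, chr4:52438971-52439220, plus strand: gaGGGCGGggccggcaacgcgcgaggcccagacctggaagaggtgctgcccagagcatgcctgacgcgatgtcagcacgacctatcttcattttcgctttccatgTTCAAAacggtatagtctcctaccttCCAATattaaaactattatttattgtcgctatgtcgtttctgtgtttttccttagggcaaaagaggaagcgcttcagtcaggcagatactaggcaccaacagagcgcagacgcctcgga
Within its 107 bases Skp2 holds 2 CHR elements, which begin 63 and 55 bases before the RefSeq start of transcription. Of the 32851 promoters in the table, 6.22% hold this motif in the same window. Neither a CCAAT box nor a GC box was found for Skp2. The Skp2 window lies wholly inside the gene Lmbrd2 (chromosome 15, 9140550 to 9202483), which is read in the opposite direction. The Melk window, which runs from 250 to 42 bases before the RefSeq start, holds 3 GC boxes on the other strand, and 26.5% of promoters hold at least 1 there. Neither a CHR element nor a CCAAT box was found for Melk. In Smc2 there is 1 CHR element (15.99% of promoters), 1 CCAAT box (33.8%) and 1 GC box (32.7%). A match of letters does not show that a factor binds.

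The wider cell cycle and p53 pathways could be read only in part, through 7 lists of known genes. Of 406 listed genes with a row, 26 were readable and 23 of these were tested, 9 of them the genes above. Among the other 14, limma called 2 higher and 4 lower, close to the 41.1% called among readable nuclear genes (18.3% higher, 22.7% lower). Over all 23, which include the 9 genes chosen with results known, the counts were 5 higher and 8 lower, with a median log2 fold change of -0.23 beside -0.15 over readable nuclear genes.

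All 4 readable genes of the list of cyclins, their kinases and regulators fell, with a median log2 fold change of -0.67, beside 22.7% of readable nuclear genes called lower. Of the 4, 3 are among the 9 genes chosen with results known. With quantile normalization Ccne2 was still called, and Skp2, Ccny and Ccnc were not (adjusted p 0.195, 0.747 and 0.227). Besides Ccne2, Skp2 and Ccny this was Ccnc, the cyclin of the Mediator kinase module, at 1214, 954 and 911 in shSLX4IP libraries, against 1584, 1539 and 1717 in Scram libraries. The groups did not overlap, but the call of Ccnc was marginal (log2 fold change -0.66, SE 0.17, limma adjusted p = 0.0402) and was lost in 9 of 17 other settings. Its exons overlap Tstd3 on the other strand.

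The 4 readable replication genes did not share a direction. Mms22l, which with Tonsl protects stalled replication forks, fell to 1133 ± 79.7 in shSLX4IP, against 2048 ± 112 in Scram (SD, n = 3 each), with a log2 fold change of -0.85 (SE 0.13, limma adjusted p = 0.00937). With quantile normalization it did not pass (limma adjusted p = 0.0821). Orc3 rose, as above. Rpa3, a subunit of the single-strand binding complex RPA, was at 1858 ± 46.6 in shSLX4IP and 1775 ± 766 in Scram and did not pass (limma adjusted p = 0.728), though it did without Scram A (log2 fold change 0.48, limma adjusted p = 0.0345). Casp8ap2, which is needed for histone gene expression in S phase, was at 1162 ± 59.6 in shSLX4IP and 1770 ± 650 in Scram and did not pass (limma adjusted p = 0.263). Like Smc2, it was lower in Scram A (1031) than in Scram B (2253) and C (2027), and without Scram A it passed (log2 fold change -0.88, limma adjusted p = 0.00177). Unlike Smc2, Casp8ap2 also passed with each library's length trend removed (log2 fold change -0.72, limma adjusted p = 0.0323, over readable nuclear genes).

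Of the mitotic list, 4 genes were tested and Melk alone passed. Zc3hc1, Kif24 and Arhgef39 had log2 fold changes of 0.47, 0.36 and -0.23, with limma adjusted p of 0.239, 0.371 and 0.585. Zc3hc1 passed without Scram A (log2 fold change 0.75, limma adjusted p = 0.00385) and with quantile normalization (0.93, adjusted p = 0.0054). Kif24 ranged between 0.12 and 0.51 and Arhgef39 between -0.46 and 0.038 when 1 library was left out, with no call. Mos, Fbxo43 and Cetn1 had a mean below 10 and were not tested, and Cetn1 was listed at 0 throughout. The 2 readable genes of cohesin and condensin were Smc2 and Esco1.

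Of the SCF and cullin list, Skp2 fell, Fbxl4 rose and Ube2r2, a partner enzyme of SCF ligases, did not pass (log2 fold change 0.27, limma adjusted p = 0.340). Ube2r2 passed without Scram A (0.46, limma adjusted p = 0.00383) and with quantile normalization (0.83, adjusted p = 0.00285), and it ranged between 0.14 and 0.46 when 1 library was left out. Fbxl4 was at 1290, 1371 and 1332 in shSLX4IP libraries, against 331, 413 and 456 in Scram libraries (log2 fold change 1.74, SE 0.18, limma adjusted p = 0.00233). Its protein is an F-box protein of mitochondria that limits mitophagy, not a known regulator of the cycle.

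The third readable p53 target was Cmbl, a hydrolase gene, at 140, 124 and 125 in shSLX4IP libraries, against 57.1, 10.3 and 27.3 in Scram libraries. Its log2 fold change of 2.30 had an SE of 0.63 and only just passed (limma adjusted p = 0.0497), and the call was lost in 9 of 17 other settings. Of the 92 genes in this list 3 were readable, and all 3 were called higher, beside 18.3% of readable nuclear genes. Trp53inp1 and Rrm2b are among the 9 genes chosen with results known, so Cmbl is the 1 other gene of the list.

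Among the 4 readable checkpoint genes, Nbn and Topors fell and Rad1 and Rad54b did not pass. Nbn, of the MRN complex that senses double-strand breaks, was at 987 ± 22.5 in shSLX4IP and 2503 ± 292 in Scram (SD, n = 3 each), with a log2 fold change of -1.33 (SE 0.14, limma adjusted p = 0.00283). Topors, a ubiquitin and SUMO ligase that acts on p53, had a log2 fold change of -0.50 (SE 0.13, limma adjusted p = 0.0390), lost in 10 of 17 other settings. Rad1, of the checkpoint clamp, was at -0.59 (limma adjusted p = 0.143). Rad54b, a recombination motor protein, was at 0.43 (limma adjusted p = 0.0821) and shares 35.8% of its exonic length with Fsbp on the same strand, so its value is uncertain. Rad54b passed in 4 of the 17 other settings, among them without Scram A (0.38, limma adjusted p = 0.0140).

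**Figure D5:**
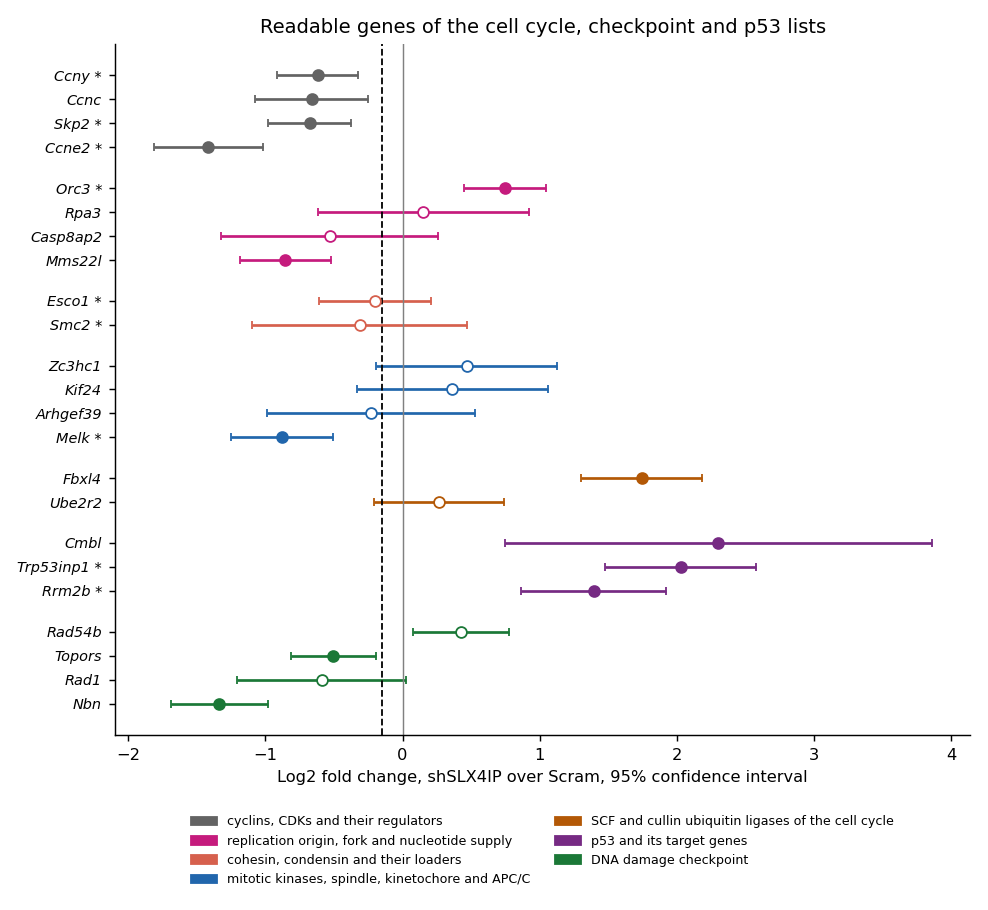
Log2 fold changes (x axis, shSLX4IP over Scram, 95% confidence intervals) of the 23 readable and tested genes of the 7 lists. Colours are lists, each gene is drawn once, filled points have a limma adjusted p below 0.05, and asterisks mark the 9 genes. The dashed line is the median of readable nuclear genes, -0.15. The 3 p53 targets lie to the right, and the 4 genes of cyclins and their regulators lie to the left.

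The readable nuclear genes whose log2 values followed those of Ccne2 most closely over the 6 libraries were Nol6 (Pearson r = 0.994), Snx30 (0.991) and Col1a2 (0.990), among 430 compared. For Trp53inp1 they were Fbxl4 (0.997), B4galt1 (0.995) and Mpp7 (0.995). The 6 points fall into 2 groups, and 52 and 61 genes had an r above 0.95 with Ccne2 and Trp53inp1. No p is given for it.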

How the data were processed

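Stranded mRNA libraries came from 1 µg of RNA each, per the labels' protocols. Tools in the submitters' processing notes are STAR 2.7.7, fastp 0.19.5, DESeq2 1.22.1 and StringTie 2.1.7, with the build GRCm38 (mm10). What each did, the annotation and the strand setting of the counting are not stated in the labels. The authors deposited 1 signal value per gene and library, not rounded. At least 99.98% of values above 0 are whole multiples, within 0.1, of a step that differs by library, which gave the recovered reads.

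Identifiers were matched without version to GENCODE M21 (GRCm38), whose coordinates are printed. The 9 genes and the lists were chosen with earlier results of these data known. Readable genes are the mitochondrial genes and those wholly inside 4 segments. Protein-coding genes in chromosome order scored 3 for a mean of at least 1000 over the 6 libraries and -1 otherwise, and segments scoring at least 30 were kept. All other segments scored at most 18. Symbols of other genes were not used for results.

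The test was 2-sided, by limma 3.58.1 (R 4.3.3) with an intensity trend on log2(value + 1). Fold changes on this scale understate the change of low genes. Columns carry letters that are not tied to the labels' replicate numbers. Exact permutation tests used scipy 1.17.1. The 17 other settings were other pseudocounts (0.5 and 5), filters (none and a mean of at least 50) and scalings (TMM and quantile), limma without trend, edgeR 4.0.16 and DESeq2 1.42.0 on recovered reads, each library left out, adjustment over readable genes, and removal of a trend with exonic length. The limma script was also run on simulated data, with planted changes larger than most of those in the 9 genes. That run therefore does not bear on the marginal calls. The genes named were the 9, their exon-overlapping genes, the readable list and marker genes, and the 3 genes most correlated with Ccne2 and Trp53inp1. Outside this rule, Rars2, Nadk2, Greb1l, Akirin2, Plekhf2, Dpy19l4 and Lmbrd2 were named for their place after their values were seen. Intervals are limma's and cover the spread between libraries.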

Additional observations from a re-analysis of the deposited data

How the results depend on the processing

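Ccne2, Trp53inp1 and Rrm2b kept their direction and call in all 17 other settings, with log2 fold changes of -1.52 to -1.203, 1.84 to 2.12 and 1.13 to 1.54. Quantile normalization moved the median over all features from 0.25 to -0.0028 and over readable nuclear genes from -0.15 to 0.10. With it Skp2 (log2 fold change -0.33, adjusted p = 0.195) and Ccny (-0.11, 0.747) lost their calls, the uncalled Smc2 (0.14) and Esco1 (0.10) changed sign, as did Ints8 (0.35), Akirin2 (0.35) and Rars2 (0.32), and 2 of the 9 genes were called lower. Limma without trend lost Skp2 (-0.68, adjusted p = 0.0656), Orc3 (0.74, 0.0531) and Ccny (-0.62, 0.0883), leaving 2 lower. With the length trend removed Esco1 passed (-0.31, adjusted p = 0.0477) and Rars2 was at 0.038 and Akirin2 at 0.15. Leaving out 1 library gave -0.70 to -0.65 for Skp2, -0.67 to -0.085 for Smc2, -0.97 to -0.77 for Melk, 0.71 to 0.79 for Orc3, -0.31 to -0.10 for Esco1 and -0.67 to -0.56 for Ccny, with 1 to 5 of the 9 called lower. They gave 1 to 6 higher and 2 to 5 lower among the other 14 list genes (2 and 4 with all libraries), 40 to 134 higher and 58 to 167 lower among readable features (80 and 106), and 433 to 1895 higher and 410 to 1573 lower among all features (952 and 920), in each case most without Scram A. They also gave -0.11 to 0.48 for Rpa3, -0.46 to 0.038 for Arhgef39, -0.15 to 0.12 for Akirin2 and -0.12 to 0.17 for Rars2, none of them called with all libraries. Among the other list genes 1 was higher with a pseudocount of 0.5, without a filter, without trend and in edgeR, and 4 with quantile normalization, and 2 were lower without a filter, without trend and in edgeR and 1 with quantile normalization. DESeq2 called 165 readable features lower, and 1602 higher and 1624 lower over all features. The cause was not tested. No paired analysis was possible because the table's columns carry letters and the labels carry numbers. Depth did not limit the 9 genes to few reads, but 3 libraries a group limit every interval.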

Other observations

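Among the nearest readable protein-coding neighbours that share no exon with the 9 genes, 4 lie 12 to 3887 bases away. They were chosen for their place after their values were seen. Nadk2, a mitochondrial NAD kinase gene 1093 bases from Skp2, was at 1900, 1932 and 1877 in shSLX4IP libraries, against 1120, 1091 and 1014 in Scram libraries. Its groups did not overlap, and it rose where Skp2 fell (log2 fold change 0.82, SE 0.13, limma adjusted p = 0.00836, called in all 17 other settings). Greb1l, 3566 bases from Esco1, was at 1151, 939 and 971 in shSLX4IP libraries, against 391, 674 and 564 in Scram libraries (log2 fold change 0.94, SE 0.25, limma adjusted p = 0.0451). In 8 of the 17 other settings it did not pass. Akirin2, 3887 bases from Orc3, was at 2236, 2316 and 2278 in shSLX4IP libraries, against 2916, 2022 and 2178 in Scram libraries, with overlapping groups and no call (log2 fold change -0.04, limma adjusted p = 0.874). Rars2, the fourth, is described with Orc3.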
